A study of Rattus norvegicus with 20 samples.

Results

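Histone genes were followed with age and maternal separation in renal vessels isolated from male Wistar Kyoto rats. The genes were taken as those whose array transcript carries exactly 1 symbol in the platform annotation and whose symbol starts with H1f, H2a, H2b, H3f, H4c or Hist (or the equivalent human-style stems). The rule found 41 genes with 1 transcript each, of 18166 genes with such a transcript. Their symbols chose them and no measured value entered the rule, though it was set with earlier results of these data known. Of the 41, 40 were found by Entrez identifier in the RefSeq gene table of GRCr8 (the rat reference assembly) under the same symbol, and Hist2h2bb was not matched. They were divided by the symbol into 26 replication-dependent genes and 15 variants. The replication-dependent genes were H1f1, H1f5 and H1f6, the H2A genes H2ac1, H2ac4, H2ac12, H2ac20, H2ac21, H2ac25 and Hist1h2af, the H2B genes H2bc1, H2bc8, H2bc9, H2bc12, H2bcl1, H2bu1, Hist1h2bd, Hist1h2bg, Hist1h2bo, Hist1h2bq, Hist2h2bb and Hist2h2be, the H3 genes Hist1h3b and Hist2h3c2, and the H4 genes H4c14 and Hist1h4b. The variants were H1f7, H1f8, H1f10, H2ab3, H2aj, H2al2l, H2al3, H2ap, H2ax, H2az1, H2az2l1, H3f3b, H3f3c, H3f3l1 and H3f4.

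The 4 groups held 5 rats each, with 1 array per rat: MatSep rats at P180, control rats at P180, MatSep rats at P10 and control rats at P10. MatSep (maternal separation) is a rat model of early life stress in which the pups are taken from the dam for part of each day in the first weeks after birth, and separation was still going on at P10. The methods describe the controls both as non-handled litters left with the dam and as littermates, and the labels give no litter for any rat. P-values therefore measure the spread between these rats with litter left out. Vessels were recovered by grating the kidney over a sieve, whose pores were smaller at P10 than at P180, so age and preparation cannot be told apart in any comparison of ages. RNA was hybridised to RaGene2.0_st arrays, and values below are log2 of the deposited normalized intensity, on which a difference of 1 is a 2-fold change. Levels of different genes are not set against each other, since each is read by its own probes.

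Histones are the proteins around which DNA is wound. H2A, H2B, H3 and H4 form the core of the nucleosome and H1 binds the linker DNA between nucleosomes. Replication-dependent histone genes lie in clusters, lack introns as a rule, and are transcribed mainly in S phase, when new DNA has to be packaged, and their mRNAs end in a stem-loop in place of a poly(A) tail. Variant histones come mostly from single genes outside the clusters, mostly with polyadenylated mRNA, and are also made by non-dividing cells. H3.3 (H3f3b) and H2A.Z (H2az1) replace the replication-dependent proteins in active chromatin, and H2A.X (H2ax) is phosphorylated at DNA breaks. H2ax is known to make both kinds of mRNA. H1f6, H2ac1 and H2bc1 are replication-dependent genes known from the testis, as are H1f7 and H3f4 among the variants, and H1f8 is the linker histone of the oocyte. Sequences of replication-dependent genes are close to identical within a family, so a value named for 1 of them may hold signal from another, which was not tested.

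Promoters are printed for 5 genes on which the results turn. They include the replication-dependent gene with the greatest fall with age (H2ac4) and both replication-dependent genes that rose (Hist1h2bq and Hist1h4b). The others are the one of the 15 variants that fell most (H2ax) and a gene of H3.3 (H3f3b), whose change was small. Each window holds the 250 bases before and the 50 bases after the gene's start, from RefSeq on GRCr8, 5′ to 3′ on the gene's strand. Capitals mark 3 motifs on either strand: CCAAT (or ATTGG), the box bound by NF-Y; TATAAA (or TTTATA), the TATA box; and ATTTGCAT (or ATGCAAAT), the octamer bound by POU2F1 and known from H2B promoters. No 2 matches overlapped in these 5 windows.
H2ac4 (chr17:47496078-47496377, minus strand): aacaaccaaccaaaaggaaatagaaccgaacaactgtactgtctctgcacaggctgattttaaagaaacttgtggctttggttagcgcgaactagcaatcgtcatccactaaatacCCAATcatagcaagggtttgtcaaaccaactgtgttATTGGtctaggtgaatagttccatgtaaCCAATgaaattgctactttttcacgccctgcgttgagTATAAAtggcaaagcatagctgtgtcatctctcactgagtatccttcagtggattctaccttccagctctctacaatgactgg
Hist1h2bq (chr17:41869292-41869591, minus strand): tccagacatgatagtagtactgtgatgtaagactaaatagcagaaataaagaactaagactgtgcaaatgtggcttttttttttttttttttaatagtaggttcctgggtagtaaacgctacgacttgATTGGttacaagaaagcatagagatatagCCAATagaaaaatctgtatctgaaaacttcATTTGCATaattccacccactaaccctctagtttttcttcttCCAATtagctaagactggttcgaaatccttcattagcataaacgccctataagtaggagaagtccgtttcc
Hist1h4b (chr17:47175996-47176295, plus strand): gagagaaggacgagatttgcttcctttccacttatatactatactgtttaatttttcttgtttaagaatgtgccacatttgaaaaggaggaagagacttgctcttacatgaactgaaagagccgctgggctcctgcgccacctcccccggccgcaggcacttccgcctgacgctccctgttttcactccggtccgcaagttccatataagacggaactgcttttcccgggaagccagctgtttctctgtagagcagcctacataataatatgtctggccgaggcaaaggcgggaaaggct
H2ax (chr8:53568468-53568767, plus strand): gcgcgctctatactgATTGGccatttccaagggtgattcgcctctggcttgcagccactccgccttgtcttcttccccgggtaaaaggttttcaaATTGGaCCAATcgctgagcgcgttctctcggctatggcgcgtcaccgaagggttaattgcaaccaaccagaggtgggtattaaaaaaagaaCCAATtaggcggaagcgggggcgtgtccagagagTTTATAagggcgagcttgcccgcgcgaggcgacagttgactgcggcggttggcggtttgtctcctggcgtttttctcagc
H3f3b (chr10:101757587-101757886, minus strand): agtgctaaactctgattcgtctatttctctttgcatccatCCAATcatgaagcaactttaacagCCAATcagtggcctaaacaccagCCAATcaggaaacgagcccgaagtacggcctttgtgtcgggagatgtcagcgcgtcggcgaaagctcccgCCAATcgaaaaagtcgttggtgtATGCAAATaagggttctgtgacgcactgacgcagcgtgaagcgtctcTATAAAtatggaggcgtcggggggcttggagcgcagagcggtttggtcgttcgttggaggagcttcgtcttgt

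H2ac4 held 3 CCAAT matches and 1 TATAAA. Hist1h2bq held 3 CCAAT matches and 1 octamer, so the gene that rose most with age carried as many CCAAT matches as the one that fell most. Hist1h4b held none of the 3 motifs. H2ax held 4 CCAAT matches and 1 TATAAA, and H3f3b held 4 CCAAT matches, 1 TATAAA and 1 octamer. Windows were found for 38 of the 41 genes, all but Hist2h2bb, H4c14 and H3f3c. CCAAT was in 23 of 24 replication-dependent promoters and in 8 of 14 variant promoters, against 37.5% of 33469 promoters in the table. At least 2 matches stood in 22 of the 24, against 11.2% of all promoters. TATAAA was in 14 of 24 replication-dependent and 5 of 14 variant promoters, against 14.2% of all. The octamer was in 11 of the 24, each of them an H2A or H2B gene, and in 2 of 14 variant promoters, against 1.78% of all. Of the 24 genes, 8 form 4 head-to-head pairs whose windows share most of their bases, and 8 of the 11 with an octamer are in these pairs. With each pair counted once, CCAAT was in 19 of 20 stretches, TATAAA in 11 and the octamer in 7. These are matches of letters in a fixed window and say nothing of binding.

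Most replication-dependent histone genes were lower in adult than in neonatal renal vasculature. In control rats 17 of the 26 were lower at P180 than at P10, 2 were higher and 7 did not pass (limma, adjusted p under 0.05 over 18511 transcripts), where 20.6% of all transcripts tested were lower and 24.7% higher. Their median change was -1.14, against 0.05 over all transcripts. In MatSep rats 17 were lower, 3 higher and 6 did not pass, with 22.2% of all transcripts lower and 27.4% higher, and the median change was -1.19, against 0.07. The 17 genes that fell in control rats fell by 0.43 to 4.74 on the log2 scale. In 16 replication-dependent genes every one of the 10 P180 arrays lay below every one of the 10 P10 arrays, as in 10.5% of all transcripts, and in 2 genes every P180 array lay above, as in 9.46%. The samples are bulk tissue, in which fewer cells that make a transcript and less of it per cell cannot be told apart.

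**Figure D1:**
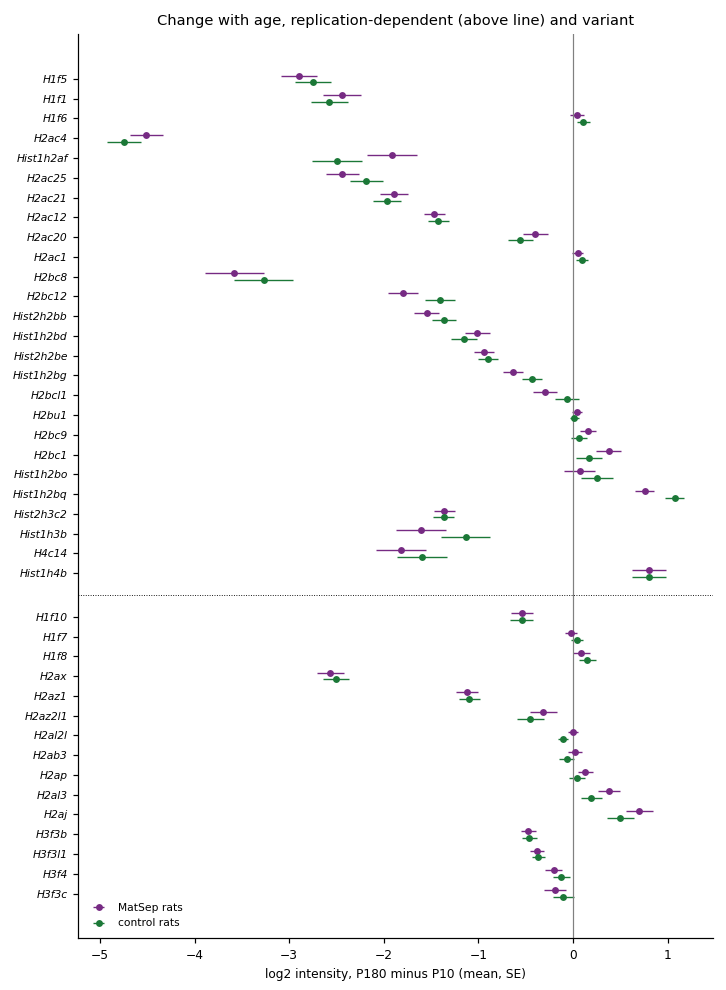
Difference in log2 intensity between P180 and P10 (x axis) for each of the 41 histone genes (y axis) in MatSep rats (purple, upper point) and control rats (green, lower point), as the fitted mean with its standard error, 5 rats per group. Replication-dependent genes stand above the dotted line and variants below it; most replication-dependent genes lie left of 0, H2ac4 furthest at -4.51 in MatSep and -4.74 in control rats, while Hist1h2bq and Hist1h4b lie right of it.

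The linker histone genes H1f5 and H1f1 both fell. H1f5, which encodes H1.5, measured 6.1, 6.19, 6.05, 5.74 and 6.15 in the control P180 rats, against 9.19, 9.12, 8.85, 8.53 and 8.27 in the control P10 rats. In MatSep rats it measured 6.18, 5.73, 5.90, 6.33 and 6.1 at P180, against 9.32, 9.33, 8.75, 9.08 and 8.25 at P10. The ages did not overlap in either treatment. The change was -2.75 (SE 0.19, adjusted p = 3.47e-10 by limma) in controls and -2.90 (SE 0.19, adjusted p = 1.53e-10) in MatSep rats. H1f1, which encodes H1.1, changed by -2.58 (SE 0.20) in controls and -2.44 (SE 0.20) in MatSep rats. The testis gene H1f6 averaged 4.64 ± 0.11 in control P180 and 4.53 ± 0.11 in control P10 rats (SD, n = 5 each) and did not pass in either treatment.

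Among the H2A genes 6 of 7 fell in both treatments. H2ac4 had the greatest fall of any histone gene. It measured 4.11, 4.81, 5.06, 4.49 and 4.73 in control P180 rats, against 9.75, 9.49, 9.38, 9.30 and 9.0 in control P10 rats, and 4.70, 5.02, 4.73, 4.46 and 5.01 in MatSep P180 rats, against 9.65, 9.69, 9.10, 9.05 and 8.97 in MatSep P10 rats. Every P10 array stood more than 3 units above every P180 array. The change of -4.74 in controls (SE 0.18, adjusted p = 2.3e-14 by limma) is a 26.8-fold lower intensity at P180, and that of -4.51 in MatSep rats (SE 0.18) is 22.7-fold. H2ac21, another H2A gene, measured 7.45, 7.31, 7.27, 7.31 and 7.77 in control P180 rats, against 9.56, 9.57, 9.27, 9.22 and 9.31 in control P10 rats, a change of -1.97 (SE 0.15). Hist1h2af, H2ac25 and H2ac12 changed by -2.49, -2.19 and -1.42 in controls and H2ac20 by -0.56. H2ac20 was the one replication-dependent gene that fell with overlapping ages, at 4.22 to 4.90 in MatSep P180 and 4.67 to 5.24 in MatSep P10 rats. The call for H2ac20 in MatSep rats (-0.40, adjusted p = 0.0173) was lost without MatSep P180 replicate 1 (adjusted p = 0.058) and without MatSep P10 replicate 1 (adjusted p = 0.0539). The testis gene H2ac1 averaged 4.34 ± 0.08 in control P180 and 4.24 ± 0.07 in control P10 rats and did not pass.

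The 12 H2B genes were mixed, with 6 lower, 1 higher and 5 not passing in controls. H2bc8 changed most, at 4.73, 4.23, 5.08, 4.66 and 5.77 in control P180 rats, against 8.48, 8.44, 7.92, 8.19 and 7.79 in control P10 rats (-3.27, SE 0.31, adjusted p = 3.58e-08 by limma). In MatSep rats H2bc8 stood at 5.81, 4.39, 4.66, 4.27 and 5.01 at P180, against 9.11, 8.82, 8.14, 8.43 and 7.53 at P10. Its spread between rats was wide in every group (SD 0.31 to 0.62) and the ages still did not overlap. H2bc12, Hist2h2bb, Hist1h2bd, Hist2h2be and Hist1h2bg also fell, with changes of -1.41, -1.36, -1.15, -0.90 and -0.43 in controls. H2bcl1, H2bu1, H2bc9, H2bc1 and Hist1h2bo did not pass in controls, with changes between -0.06 and 0.25. These 5 had the lowest mean log2 intensities of the 12 over all arrays, from 4.54 (H2bu1) to 5.14 (H2bc1). How far they stood above background was not tested. H2bc1, a testis gene, passed as higher in MatSep rats (0.37, SE 0.13, adjusted p = 0.0269) with overlapping groups, 5.76, 5.11, 5.26, 4.95 and 5.60 in MatSep P180 rats, against 4.86, 5.21, 4.67, 5.08 and 4.99 in MatSep P10 rats. That call was lost under further quantile normalization (adjusted p = 0.0878), with only the compared groups in the fit (adjusted p = 0.0644) and without any 1 of 4 arrays (adjusted p = 0.0573 to 0.0912): MatSep P180 replicates 1 and 5 and MatSep P10 replicates 1 and 3.

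Hist1h2bq and Hist1h4b went the other way. Hist1h2bq, an H2B gene, measured 11.46, 11.45, 11.59, 11.43 and 11.65 in control P180 rats, against 10.52, 10.46, 10.30, 10.36 and 10.58 in control P10 rats, a change of 1.07 (SE 0.10, adjusted p = 1.83e-08 by limma) or 2.10-fold. In MatSep rats it measured 11.35, 11.19, 11.14, 11.33 and 11.38 at P180, against 10.75, 10.72, 10.12, 10.58 and 10.43 at P10, a change of 0.76 (SE 0.10). Every P180 array lay above every P10 array. Hist1h4b, an H4 gene, measured 9.11, 9.33, 9.06, 8.73 and 9.55 in control P180 rats, against 8.53, 8.57, 7.70, 8.48 and 8.50 in control P10 rats, a change of 0.80 (SE 0.18, adjusted p = 0.00089), and in MatSep rats it also changed by 0.80. Its ages did not overlap either. The other H4 gene, H4c14, changed by -1.60 in controls (SE 0.26, 9.17, 9.39, 10.01, 10.02 and 9.82 in control P180 rats, against 11.65, 11.36, 11.20, 11.10 and 11.08 in control P10 rats). Both genes that rose have longer annotated bodies than most of the class: 20 of 25 replication-dependent genes matched in RefSeq span at most 1614 bases, while Hist1h2bq spans 9935 and Hist1h4b 4445. The other 3 over 2000 bases did not share the direction: H1f1 (32599 bases) and Hist2h2be (2448) fell and H2bc9 (7998) did not pass. Which of the annotated transcripts the probes read was not tested.

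**Figure D2:**
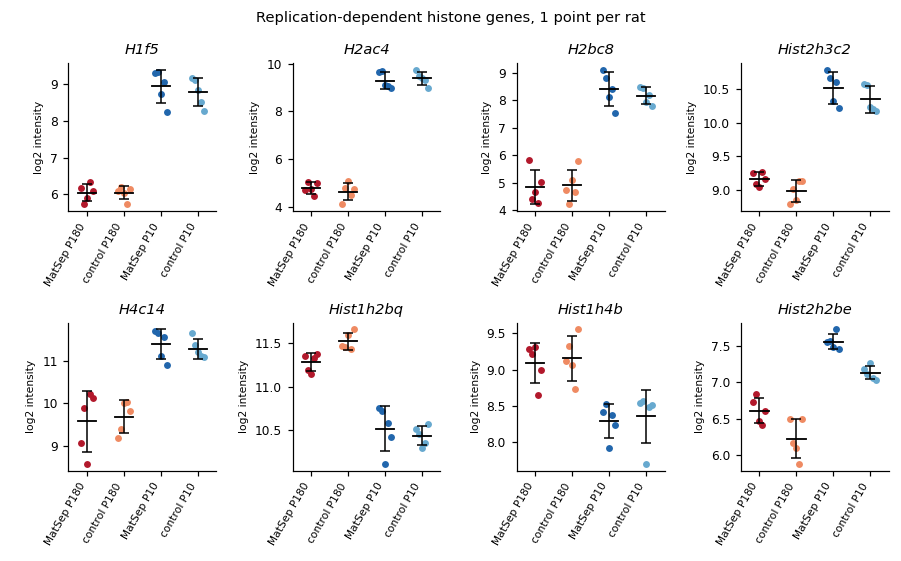
Log2 intensity (y axes, each with its own range) of 8 replication-dependent histone genes in each rat, by group: MatSep P180, control P180, MatSep P10 and control P10; points are rats, bars the mean and SD, n = 5. H1f5, H2ac4, H2bc8, Hist2h3c2 and H4c14 stand lower at P180 in both treatments, Hist1h2bq and Hist1h4b stand higher, and Hist2h2be differs by age and also stands higher in MatSep than in control rats at each age (0.38 at P180 and 0.43 at P10), a difference that did not pass.

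Both replication-dependent H3 genes fell, and the variant genes of H3.3 fell by less. Hist2h3c2 measured 8.78, 9.02, 8.85, 9.14 and 9.13 in control P180 rats, against 10.59, 10.56, 10.23, 10.20 and 10.18 in control P10 rats (-1.37, SE 0.11, adjusted p = 3.25e-09 by limma), and changed by -1.36 in MatSep rats. Hist1h3b changed by -1.14 (SE 0.26) in controls and -1.61 (SE 0.26) in MatSep rats. H3f3b measured 10.78, 10.66, 10.65, 10.83 and 10.86 in control P180 rats, against 11.41, 11.28, 11.13, 11.19 and 11.09 in control P10 rats, and changed by -0.47 (SE 0.08) in each treatment. The ages did not overlap for any of these 3 genes. The within-array difference of Hist2h3c2 minus H3f3b averaged -1.58 ± 0.10 in MatSep P180, -1.77 ± 0.14 in control P180, -0.70 ± 0.18 in MatSep P10 and -0.87 ± 0.10 in control P10 rats (SD, n = 5 each), with no overlap of the ages. The size of that difference at 1 age has no meaning across probes, and only its shift with age is read here. The shift is one of measured intensity, and whether the 2 genes changed unequally was not tested. H3f3l1, by its symbol an H3.3-like gene, changed by -0.37 (SE 0.07), and H3f3c, a pseudogene in RefSeq, did not pass at -0.10 (SE 0.12).

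Of the 15 variants 7 passed in control rats, a share of 46.7% that lies near the 45.3% of all transcripts that passed, and in MatSep rats 7 did, against 49.6% of all. In control rats 6 of them fell with age, where 20.6% of all transcripts did, 1 rose, where 24.7% did, and 8 did not pass, with a median of -0.11. In MatSep rats 5 were lower, 2 higher and 8 did not pass, with a median of -0.19. Of the 10 variants with a mean log2 intensity of 5 or more over the 20 arrays, 6 were lower and 1 higher in controls (median -0.41). In MatSep rats 5 of these 10 were lower and 1 higher (median -0.35). In a fit of only the 14992 transcripts with such a mean, 3781 were lower and 3978 higher in controls. In MatSep rats 4061 were lower and 4348 higher in that fit. Of the 5 variants below that mean, 0 passed in controls and 1 was higher in MatSep rats. The share over all 15 includes these genes of low intensity. H2ax had the greatest change of the 15 variants, with 5.52, 5.77, 5.99, 5.61 and 5.61 in control P180 rats, against 8.52, 8.48, 8.14, 8.04 and 7.85 in control P10 rats, a change of -2.51 (SE 0.14, adjusted p = 8.71e-12 by limma). In MatSep rats H2ax changed by -2.56 (SE 0.14), with 5 values between 5.56 and 5.89 at P180, against 5 between 7.80 and 8.51 at P10. Its change lay within the range of the replication-dependent genes that fell. H2az1 measured 9.24, 9.30, 9.38, 9.31 and 9.49 in control P180 rats, against 10.77, 10.67, 10.23, 10.27 and 10.25 in control P10 rats (-1.10, SE 0.11), and H1f10, the linker variant H1.10, changed by -0.54 (SE 0.12). H2az2l1, by its symbol an H2A.Z-like gene, changed by -0.45 (SE 0.14, adjusted p = 0.0131), with overlapping ages, and by -0.31 in MatSep rats, which did not pass (adjusted p = 0.0725). With only the P10 rats numbered 14 to 17 the control call for H2az2l1 was lost (-0.19, adjusted p = 0.44).

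H2aj was the single variant that rose in control rats. It measured 7.53, 7.44, 7.73, 7.68 and 7.46 in control P180 rats, against 7.30, 7.34, 6.54, 7.11 and 7.06 in control P10 rats (0.50, SE 0.14, adjusted p = 0.00767 by limma), and 7.75, 7.65, 7.48, 7.64 and 7.82 in MatSep P180 rats, against 7.45, 7.12, 6.71, 6.84 and 6.71 in MatSep P10 rats (0.70, SE 0.14, adjusted p = 0.000437). Within each treatment every P180 rat lay above every P10 rat, though the highest MatSep P10 value (7.45) reached past the lowest control P180 value (7.44). H2aj encodes H2A.J, an H2A variant known from senescent human fibroblasts. With only the P10 controls numbered 14 to 17 the change was 0.25 and did not pass (adjusted p = 0.119). H2al3 passed as higher in MatSep rats (0.38, SE 0.11, adjusted p = 0.0099) and not in controls (0.19, adjusted p = 0.177), and the call was lost with only 1 of the P10 runs in the fit (adjusted p = 0.0627 and 0.0716). Its mean log2 intensity over all arrays was low, at 4.60. The remaining variants, H1f7, H1f8, H2ab3, H2al2l, H2ap, H3f4 and H3f3c, did not pass in either treatment, with changes between -0.20 and 0.15. Of the 41 genes, 21 replication-dependent and 10 variant genes had a mean log2 intensity of 5 or more. No detection call was used, so how far the others stood above background was not tested.

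**Figure D3:**
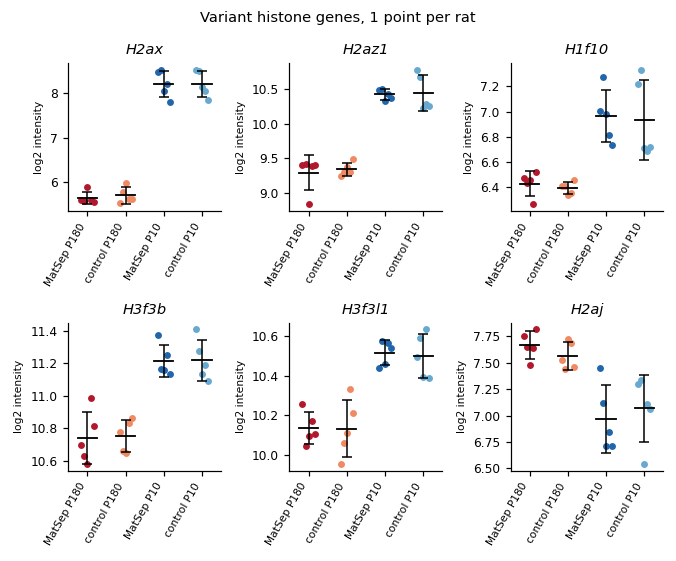
Log2 intensity (y axes, each with its own range) of 6 variant histone genes in each rat, in the order MatSep P180, control P180, MatSep P10 and control P10; points are rats, bars the mean and SD, n = 5. H2ax has the greatest separation of ages (-2.56 in MatSep and -2.51 in control rats), H2az1, H1f10, H3f3b and H3f3l1 are lower at P180 by smaller amounts, and H2aj is higher.

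Head-to-head neighbours were compared where both genes of a pair had a promoter window and the 2 windows overlapped on opposite strands in GRCr8. There were 4 such pairs. H2bc12 and H2ac12 changed by -1.41 and -1.42 in controls, and Hist2h2be and H2ac20 by -0.90 and -0.56. The testis pair H2bc1 and H2ac1 changed by 0.17 and 0.10, and neither passed. H2bu1 and H2ac25, whose windows share 283 bases, had unlike changes, 0.01 (SE 0.05) for H2bu1 and -2.19 (SE 0.17) for H2ac25. The mean log2 intensity over all arrays was low for H2bu1 (4.54) and for H2ac1 of the testis pair (4.28). How far H2bu1 and H2ac1 stood above background was not tested, so a fall in either could have gone unseen. The difference between the genes of a pair was not tested.

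A further 19 transcripts carried several symbols, all of them histone genes, and were kept out of the counts since no value could be given to 1 gene. In a fit over all 36685 transcripts, 13 of them fell with age in controls, 1 rose and 5 did not pass, with changes from -4.48 to 0.90 and a median of -1.39. In that fit 17.9% of all transcripts were lower and 20.1% higher. In MatSep rats 13 were lower and 2 higher, where 17.7% and 21.2% of all transcripts were. Histone variants outside the symbol rule fell as well: Macroh2a2 and Macroh2a1, the macroH2A genes, changed by -2.72 (SE 0.19) and -0.72 (SE 0.06) in controls, and Cenpa, the H3 variant of the centromere, by -0.50 (SE 0.13).

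Genes that act on histones moved unevenly with age. Of all transcripts tested 20.6% were lower and 24.7% higher at P180 in controls, and 22.2% and 27.4% in MatSep rats. Of 12 measured genes for histone mRNA 3′ end processing and the histone locus body, 7 fell with age in controls, 3 rose and 2 did not pass (median -0.29), and in MatSep rats 7 were lower, 1 was higher and 4 did not pass. Npat, the coactivator of replication-dependent histone genes, changed by -0.64 (SE 0.07), Casp8ap2 (FLASH) by -0.51 (SE 0.06), Lsm11, of the U7 snRNP, by -0.66 (SE 0.10) and Ncbp1, of the cap-binding complex, by 0.30 (SE 0.06). Slbp, the protein that binds the stem-loop, changed by -0.53 (SE 0.11). Of 17 histone chaperones 10 were lower, none higher and 7 did not pass in each treatment (median -0.31 in controls). Chaf1b and Chaf1a, subunits of the assembly factor that places new H3 and H4 on replicating DNA, changed by -1.66 (SE 0.09) and -1.12 (SE 0.10). Nasp, which holds a store of free H3 and H4, changed by -1.07 (SE 0.10), and Hjurp, the chaperone of Cenpa, by -1.93 (SE 0.15). Hira and Daxx, chaperones of H3.3, changed by 0.06 (SE 0.07) and 0.03 (SE 0.08) and did not pass.

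Cell cycle genes were lower at P180 beside the histones, where 20.6% of all transcripts tested were lower in controls and 22.2% in MatSep rats. Of 25 measured genes of S phase and DNA replication 24 were lower, none higher and 1 did not pass in each treatment, with a median of -1.29 in controls and -1.21 in MatSep rats. Mcm4, of the replicative helicase, changed by -2.11 (SE 0.07), Rrm2, of ribonucleotide reductase, by -2.86 (SE 0.11), Pole, of DNA polymerase epsilon, by -1.85 (SE 0.07) and Ccna2, cyclin A2, by -2.85 (SE 0.09). All 13 measured genes of G2 and mitosis were lower in each treatment, with a median of -2.58 in controls, among them Mki67 (-4.11, SE 0.08) and Top2a (-4.17, SE 0.12). The lists were chosen with earlier results of these data known, and their part in the histone values was not tested.

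**Figure D4:**
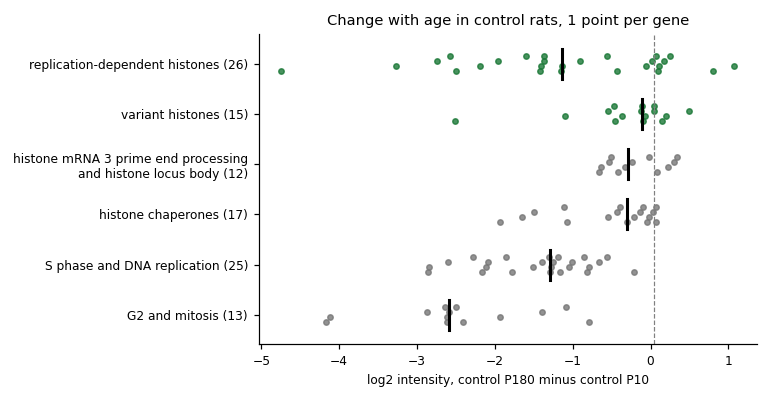
Difference in log2 intensity between control P180 and control P10 rats (x axis) for each gene of 6 sets (y axis, with the number of genes), 1 point per gene; black bars are set medians and the dashed line is the median of all 18511 transcripts (0.05). Medians run from -0.11 for variant histones through -1.14 for replication-dependent histones to -2.58 for G2 and mitosis genes.

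Some markers of other cell types also differed between the ages, and their part in the histone values was not tested. Of all transcripts tested 20.6% were lower and 24.7% higher at P180 in controls, and 22.2% and 27.4% in MatSep rats. A count near these shares does not set a list apart from all transcripts. Per array, the mean log2 intensity of 7 smooth muscle markers was 10.21 to 10.65 in control P180 and 8.47 to 10.13 in control P10 rats, and 5 of 7 were higher at P180. For 7 fibroblast markers it was 9.44 to 10.17 in control P180 and 10.82 to 11.68 in control P10 rats. Of these 7, 6 were lower and 1 higher. In MatSep rats 3 of 7 smooth muscle markers were higher and 7 of 7 fibroblast markers lower at P180. In controls 5 of 7 macrophage markers were higher at P180 and 1 was lower. Of 5 lymphocyte markers 4 were higher, and of 7 proximal tubule markers 4. The tubule set averaged 11.24 to 11.87 in control P180 and 11.01 to 11.49 in control P10 rats. In each treatment 2 of 9 endothelial markers were lower, 1 was higher and 6 did not pass. Nephron progenitor markers, which belong to the kidney still forming nephrons, split into 2 lower and 2 higher of 6 in controls and 3 lower and 1 higher in MatSep rats. In controls distal nephron markers gave 3 lower and 2 higher of 7, erythroid markers 1 higher of 3 and podocyte markers none of 3. In MatSep rats distal nephron markers gave 0 lower and 1 higher, erythroid markers 1 lower and 1 higher and podocyte markers 1 lower.

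Within the P10 rats most replication-dependent genes also stood lower in the later sample numbers. The numbers in the labels fall into 4 runs. The P180 rats are numbered 1 to 6 or 8 to 11, and the P10 rats 14 to 17 or 19 to 24. Each run holds equal numbers of MatSep and control rats, and nothing in the labels calls a run a batch. At P10, 25 of 26 replication-dependent genes were lower in rats 19 to 24 than in rats 14 to 17, with a median difference of -0.32, against 0.0008 over all transcripts, of which 49.8% were lower. Of the variants 6 of 15 were lower. Of the S phase genes 24 of 25 were lower (median -0.20), and of the G2 and mitosis genes 13 of 13 (median -0.23). Each run holds a single age, so run and age cannot be told apart. Set against only 1 of the P10 runs, H2ac4 changed by -4.98 (rats 14 to 17) and -4.59 (rats 19 to 24) in controls, H1f5 by -3.11 and -2.51, Hist1h3b by -1.60 and -0.82, and Hist1h2bq by 1.03 and 1.10. With the run as a random block the counts in controls were the same, 17 lower and 2 higher among replication-dependent genes and 6 and 1 among variants. In that fit 3304 of 18511 transcripts were lower and 3595 higher. It took 1 correlation within runs (0.2) for all transcripts, so the run difference of these genes was not fitted gene by gene.

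No histone gene passed between MatSep and control rats at either age. At P10 none of 41 passed, where 0.0162% of all transcripts tested passed as higher and 0% as lower, and at P180 none of 41, where 0.0162% passed in each direction (limma). At an unadjusted p under 0.05 there was 1 histone gene of 41 at P10, where 9.67% of all transcripts lay under it, and 4 at P180, where 5.76% did. With the run of sample numbers as a block there were 3 at P10 (13.3% of all) and 7 at P180 (7.42%), and none passed after adjustment. Over the replication-dependent genes the median difference was 0.07 at P10 and -0.03 at P180, and over the variants it was -0.004 at P10 and 0.01 at P180. The difference of the MatSep effect between P180 and P10 passed for none of 41, as for 0% of all transcripts, with 1 at an unadjusted p under 0.05 (9.04% of all) and 3 with the run as a block (12.1%). The contrasts at P10 share the control P10 rats with the change with age in controls.

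**Figure D5:**
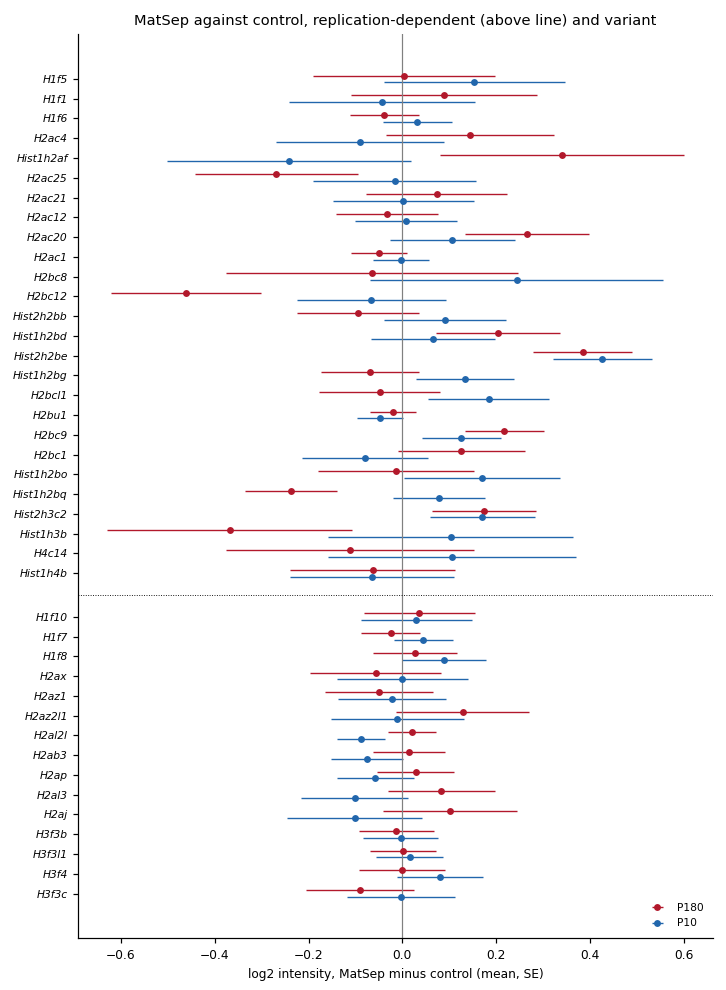
Difference in log2 intensity between MatSep and control rats (x axis) for each histone gene (y axis) at P180 (red, upper point) and P10 (blue, lower point), as the fitted mean with its standard error, 5 rats per group. No gene passed; Hist2h2be lies right of 0 at both ages (0.38 and 0.43), H2bc12 left of 0 at P180 (-0.46), and the variants lie between -0.10 and 0.13.

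Hist2h2be, an H2B gene, had the smallest p at both ages. At P10 it measured 7.55, 7.56, 7.49, 7.73 and 7.46 in MatSep rats, against 7.18, 7.12, 7.26, 7.06 and 7.04 in control rats. Every MatSep rat lay above every control rat, as in 0.724% of all transcripts, and no histone gene had every MatSep rat below every control rat, as 0.945% of all transcripts had. The difference was 0.43 (SE 0.11, p = 0.000652, adjusted p = 0.175 by limma, exact 2-sided permutation p = 0.00794). That exact p is the smallest that 5 against 5 allows. It follows from the lack of overlap just stated and adds nothing to it. Exact p-values of single genes were not adjusted for the choice of these genes by their small p. At P180 Hist2h2be measured 6.73, 6.84, 6.47, 6.42 and 6.61 in MatSep rats, against 6.50, 6.17, 6.11, 5.88 and 6.50 in control rats. The difference was 0.38 (SE 0.11, adjusted p = 0.369 by limma, exact permutation p = 0.0476), with 3 of 5 MatSep rats above every control rat. Within the runs it was 0.42 (rats 1 to 6) and 0.32 (rats 8 to 11) at P180 and 0.41 (rats 14 to 17) and 0.44 (rats 19 to 24) at P10. With the run as a block the adjusted p was 0.125 at P10 and 0.239 at P180. With weights for each array it passed at P10 (0.49, adjusted p = 0.0155), a setting under which 303 transcripts were higher and 182 lower at P10 in place of 3 and 0. Over the other alternatives that kept the threshold, leaving out each array included, it did not pass. It was the same gene that fell by 0.90 with age in controls.

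H2bc12 had the second smallest p at P180, with 8.41, 8.39, 8.38, 9.05 and 9.19 in MatSep rats, against 9.19, 9.01, 9.36, 8.80 and 9.37 in control rats. The difference of -0.46 (SE 0.16, adjusted p = 0.569 by limma, exact permutation p = 0.0794) did not pass, and it was -0.79 within rats 1 to 6 and 0.04 within rats 8 to 11. H2bc9 differed by 0.22 (SE 0.08, adjusted p = 0.677). Hist1h2bq measured 11.14 to 11.38 in MatSep P180 rats, against 11.43 to 11.65 in control P180 rats, without overlap, as 0.47% of all transcripts lie below without overlap (-0.24, SE 0.10, adjusted p = 0.766). No histone gene lay above without overlap at P180, as 0.34% of all transcripts did. The MatSep effect on Hist1h2bq differed between P180 and P10 by -0.32 (SE 0.14, adjusted p = 0.494 by limma), the smallest p of the histone genes for that difference, with 0.08 at P10. The next were H2bc12 at -0.40 (SE 0.22) and Hist1h2af at 0.58 (SE 0.37). Among replication-dependent genes at P10 Hist2h3c2 and H2bc9 followed Hist2h2be, with differences of 0.17 (SE 0.11) and 0.13 (SE 0.08).

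Among the variants the smallest p at P10 belonged to H2al2l (-0.09, SE 0.05), H1f8 (0.09, SE 0.09) and H2ab3 (-0.08, SE 0.08), with adjusted p between 0.598 and 0.797 by limma. At P180 it belonged to H2az2l1 (0.13, SE 0.14), H3f3c (-0.09, SE 0.12) and H2al3 (0.08, SE 0.11), each with an adjusted p of 1, and for the difference between the ages to H2al2l (0.11, SE 0.07), H2al3 (0.18, SE 0.16) and H2aj (0.20, SE 0.20). H2ax differed by -0.06 and H3f3b by -0.01 at P180. A p that missed the threshold does not show that the groups were alike. No marker of another cell type passed between MatSep and control rats. At P10 the differences of 7 of 7 fibroblast markers (median 0.53) and 7 of 7 smooth muscle markers (median 0.51) were above 0. So were those of 7 of 7 macrophage (median 0.26) and 3 of 3 podocyte markers (median 0.23). Nephron progenitor markers gave 5 of 6, endothelial 4 of 9, distal nephron 3 of 7, lymphocyte 2 of 5, erythroid 1 of 3 and proximal tubule 1 of 7. Per array the fibroblast markers averaged 11.55 to 12.12 in MatSep P10 and 10.82 to 11.68 in control P10 rats. At P180 the differences of 0 of 7 fibroblast (median -0.35) and 0 of 7 smooth muscle markers (median -0.07) were above 0. Macrophage markers gave 2 of 7 and podocyte markers 2 of 3. The part of these markers in the Hist2h2be difference was not tested.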

How the data were processed

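Total RNA from isolated renal vessels of 20 rats was hybridised to RaGene2.0_st arrays. The deposited values are linear intensities, 1 per transcript and array, which the authors had normalized; RMA and Partek are named in the submitters' processing notes, with versions not given in the sources used here. Columns holding the authors' own comparisons were not used.

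Intensities were taken to log2 and fitted in limma 3.58.1 under R 4.3.3. The table holds 36685 transcripts, of which the 18511 with a single symbol (platform annotation) were tested; 575 carry several and 17599 have none listed there. One mean per group was fitted to the 20 arrays (16 residual degrees of freedom), p-values were adjusted by Benjamini-Hochberg over the 18511 transcripts, and the threshold was 0.05. The number of arrays limits the precision. Single values were also compared by an exact permutation test over 252 arrangements. The fit was tested on simulated data. Where a gene has several transcripts, the one with the highest mean was to be taken; each histone gene has 1.

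The members, classes and lists were chosen with earlier results of these data known. Genes named are, for each replication-dependent class, those with the highest mean and the greatest change with age in controls, every variant, every replication-dependent gene that did not pass or went against its class, the 3 smallest p of each class between MatSep and control rats, and up to 4 genes of a list with the smallest p; the other histone genes, Slbp, Hira and Daxx were named after their values were seen. Promoters are RefSeq sequences of GRCr8. The array's genome build is not given in the sources used here, so no other coordinates are printed. Figures were drawn with matplotlib 3.10.9. Alternatives are given in the closing section.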

Additional observations from a re-analysis of the deposited data

Results flagged for a closer look

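In 10 of 164 groups of 5 rats (41 genes in 4 groups) 1 rat lay far from the other 4, by a gap over range above 0.71; chance alone gives about 1 in 20 groups. Among replication-dependent genes these were H2ac12 in control P10 replicate 5 (8.19, the others 8.50 to 8.55), Hist1h2bg in MatSep P180 replicate 4 (7.70, the others 7.53 to 7.56), H2bc9 in control P180 replicate 1 (5.03, the others 4.93 to 4.96) and Hist1h4b in control P10 replicate 3 (7.70, the others 8.48 to 8.57). Among variants they were H2ax in MatSep P180 replicate 3 (5.89, the others 5.56 to 5.60), H2az1 in the same rat (8.84, the others 9.40 to 9.42), H2al2l in control P180 replicate 2 (4.84, the others 4.71 to 4.74), H2ab3 in MatSep P10 replicate 5 (5.76, the others 5.50 to 5.54), H2ap in MatSep P180 replicate 4 (5.32, the others 4.84 to 4.94) and H2al3 in MatSep P180 replicate 5 (5.12, the others 4.64 to 4.73).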

How the results depend on the processing

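Counts of replication-dependent and variant genes that changed with age stayed within 1.5 times of the reported ones in 102 comparisons with an alternative and not in 10, and counts between MatSep and control rats in 139 and not in 1. With a change of at least 1 on the log2 scale also required, controls had 1 replication-dependent gene higher (Hist1h2bq), 2 variants lower and 0 higher, and MatSep rats had 0 replication-dependent genes higher, 2 variants lower and 0 higher. In MatSep rats 1 variant was higher in place of 2 when transcripts under a mean of 5 were dropped, and also with only the P10 rats 14 to 17 or only 19 to 24, settings chosen after seeing the data. In controls, with rats 14 to 17 only, 0 variants were higher. With array weights 1 replication-dependent gene passed as higher in MatSep than in control rats at P10. Without each array in turn, controls gave 17 replication-dependent genes lower and 2 higher and 6 variants lower and 1 higher every time, and MatSep rats gave 16 to 18 and 2 to 4, and 5 to 6 and 2, while no gene passed between MatSep and control rats. With a replicate block the counts were 17, 2, 6 and 1 in controls, 17, 3, 5 and 2 in MatSep rats, and 0 for MatSep. Rats with the same number share only a number: of 20 pairs 10 correlated above 0.1 (-0.211 to 0.615). The 5 pairs of MatSep P10 with control P10 rats correlated at 0.0924 to 0.615, with the own number best in 4, as a hint from the data only. The difference between MatSep and control rats at P180 turned sign for H3f3c without control P180 replicate 1 (range -0.171 to 0.00201) and for H2al3 without MatSep P180 replicate 5 (-0.00117 to 0.21); neither passed. Apart from the calls named in the report for single genes, H2bc1 in MatSep rats was also lost with the run as a random block (adjusted p = 0.0901) and with only the P10 rats 14 to 17 (adjusted p = 0.245), and H2ac20 with only the P10 rats 19 to 24 (adjusted p = 0.115). The cause of these shifts was not tested. No detection calls were used, so genes near the lower end of intensity are limited in what change they can show.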
